A study of Mus musculus with 3 samples.

Results

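The 749 strongest ETV5 peaks at promoter-type chromatin of mouse alveolar type II (AT2) cells are described here. They are the ETV5 peaks on chromosomes 1 to 19 and X in which at least 100 immunoprecipitated fragments overlapped at the summit (the pileup) and of which at least 1 bp lay in an H3K4me3 peak. They make up 2.40% of the 31149 ETV5 peaks on these chromosomes. Of the same peaks 2.51% reached a pileup of 100 at all, that is 783 peaks, and 34 of these lay outside H3K4me3. The members were chosen by pileup and H3K4me3 overlap, so the pileup, the ETV5 fold enrichment, the ETV5 width and the overlap itself are given as descriptions.

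The study immunoprecipitated chromatin of AT2 cells, the lung epithelial cells that make surfactant, with anti-ETV5, and separately with antibody to the H3K4me3 mark (trimethylation of lysine 4 on histone H3), and lists an input library without antibody. All samples came from C57BL/6 mice aged 10 to 12 weeks, with no transgene, deletion or treatment named in the labels, and the chromatin was fixed with 1% formaldehyde for 11 min. There is 1 library per antibody, so no value has a replicate check, no test between libraries was possible, and the number of pooled animals is not known here. The ETV5 list rests on 5715049 tags and the H3K4me3 list on 34907608 tags. Intervals are exact 95% binomial intervals of a share, or order-statistic intervals of a median, and cover counting error only.

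ETV5 belongs to the PEA3 subgroup of ETS transcription factors, whose DNA-binding domain recognises a GGAA core and prefers it inside CCGGAAG. Its expression is induced by receptor tyrosine kinase signalling through RAS and ERK, and in AT2 cells it is known for maintaining their identity. Many other ETS factors, such as GABPA, bind the same letters at promoters of housekeeping genes. H3K4me3 is laid down by the SET1 and MLL methyltransferases on the nucleosomes that flank active transcription start sites, and the start itself is often depleted of nucleosomes.

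The peaks fell into those with an ETS sequence at the summit and those without one, and both kinds occurred among the strongest. The sequences below are the 101 bases centred on the ETV5 summit, on the strand of the gene, for the 9 peaks of highest pileup (ties included) whose window lies within the 300-base promoter (250 bases before and 50 after the start) of the RefSeq table for GRCm38.p6. Capitals mark CCGGAA and its reverse complement TTCCGG. Rnf44 (chr13:54693961-54694061, minus strand), Dohh (chr10:81384299-81384399, plus strand), Ptcd2 (chr13:99344660-99344760, minus strand) and Mob2 (chr7:142060989-142061089, minus strand) held CCGGAAG within 50 bp of the summit. Map7d1 (chr4:126256419-126256519, minus strand) and Wasl (chr6:24664984-24665084, minus strand) held only the 6-letter form there, and Wasl had CCGGAAG 67 bp from the summit.
Rnf44: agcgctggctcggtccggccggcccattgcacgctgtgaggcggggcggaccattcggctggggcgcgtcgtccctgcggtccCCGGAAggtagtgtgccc
Dohh: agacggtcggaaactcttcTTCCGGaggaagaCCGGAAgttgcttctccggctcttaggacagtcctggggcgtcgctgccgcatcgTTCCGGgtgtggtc
Ptcd2: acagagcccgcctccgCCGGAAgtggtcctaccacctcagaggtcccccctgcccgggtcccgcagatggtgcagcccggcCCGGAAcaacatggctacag
Mob2: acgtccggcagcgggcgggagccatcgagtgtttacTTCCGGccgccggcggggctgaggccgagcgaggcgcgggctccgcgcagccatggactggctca
Map7d1: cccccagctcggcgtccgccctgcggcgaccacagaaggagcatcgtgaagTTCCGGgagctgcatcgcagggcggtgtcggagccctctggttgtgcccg
Wasl: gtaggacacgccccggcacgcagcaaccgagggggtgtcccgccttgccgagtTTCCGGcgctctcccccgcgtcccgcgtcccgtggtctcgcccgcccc

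Smc3 (chr19:53600204-53600304, plus strand), Hdac2 (chr10:36974347-36974447, plus strand) and Cenpn (chr8:116921545-116921645, plus strand) held neither form within 50 bp, and are shown because their pileups of 284, 283 and 279 fragments lay within the range of those above.
Smc3: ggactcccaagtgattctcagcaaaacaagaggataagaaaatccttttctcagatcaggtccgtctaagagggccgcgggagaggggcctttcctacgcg
Hdac2: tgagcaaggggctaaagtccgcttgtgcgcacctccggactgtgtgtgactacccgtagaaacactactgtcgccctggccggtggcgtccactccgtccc
Cenpn: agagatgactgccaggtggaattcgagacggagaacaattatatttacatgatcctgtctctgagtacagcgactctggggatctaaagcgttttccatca

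The windows of Timmdc1 (chr16:38522669-38522769, minus strand), Rab11a (chr9:64737770-64737870, minus strand) and Surf6 (chr2:26902903-26903003, minus strand) are shown because their 300-base promoters held 4 copies of CCGGAAG, the most of any. Their pileups of 145, 124 and 101 fragments compare with a median of 128 over the 749.
Timmdc1: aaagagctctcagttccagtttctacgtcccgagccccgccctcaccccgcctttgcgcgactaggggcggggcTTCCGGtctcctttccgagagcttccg
Rab11a: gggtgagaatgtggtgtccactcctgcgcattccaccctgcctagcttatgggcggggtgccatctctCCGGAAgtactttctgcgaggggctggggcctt
Surf6: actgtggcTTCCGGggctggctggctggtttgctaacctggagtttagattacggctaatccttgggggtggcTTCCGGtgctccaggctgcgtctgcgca

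The pileups of the 749 peaks ran from 100 to 381 fragments, with a median of 128 and quartiles of 111 and 161. The highest was at Pip5k1c, a kinase gene that makes the membrane lipid PI(4,5)P2 (chromosome 10, 81292491 to 81293769), with 381 fragments over an input background of 1.87 fragments and a fold of 133. Since the caller kept 1 tag per position and extended tags to 203 bp, no ETV5 pileup could pass 406 fragments. Pip5k1c thus stood at 93.8% of that ceiling and the threshold at 24.6%, so pileups near the top are compressed.

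The next peaks lay at genes of many kinds. Rnf44, which encodes a RING finger protein, had 355 fragments, and Bzw1, a translation regulator, 306. Dohh, the enzyme that completes the hypusine modification of eIF5A, had 293. The peak shared by Ptcd2, a mitochondrial RNA-binding protein gene, and Mrps27, of the mitochondrial ribosome, had 288.

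The repressor gene Bcl6 (chromosome 16, 23988366 to 23989219) had 324 fragments and the highest fold of the 749, at 165. The clock repressor Per2 had 286, the corepressor gene Mier1 284 and the histone deacetylase gene Hdac2 283. Noct, a gene of circadian metabolism, had 294.

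Spred2, an inhibitor of RAS and ERK signalling, had a peak of 300 fragments (chromosome 11, 19919501 to 19920848) whose summit lay 4075 bp upstream of the gene, in an H3K4me3 peak of 1411 bp. Sftpb, which encodes surfactant protein B, had 289 (chromosome 6, 72303479 to 72306139). The ARF regulator Git2 and its neighbour Ankrd13a shared a peak of 288, the cohesin gene Smc3 and the microtubule-associated gene Map7d1 had 284 each, and the centromere gene Cenpn, Mob2 and the actin regulator Wasl had 279 each. Abtb1 and Atrnl1 had 291 and 290.

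At the other end, Hspa4, a chaperone gene, Gm38469 and Gtf3c2, of RNA polymerase III transcription, had 100 fragments and were just inside the threshold. Rps3a1, of the small ribosomal subunit, Rusc2 and N6amt1, a methyltransferase gene, had 99 and were just outside it. Fold and pileup ranked the peaks alike, with a Spearman correlation of 0.748 over 749 peaks that share libraries and background. All 749 folds lay between 25.7 and 165, with a median of 56.9. The lowest was at Hjurp, a centromere histone chaperone gene, where 196 fragments stood over an input background of 6.65.

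**Figure D1:**
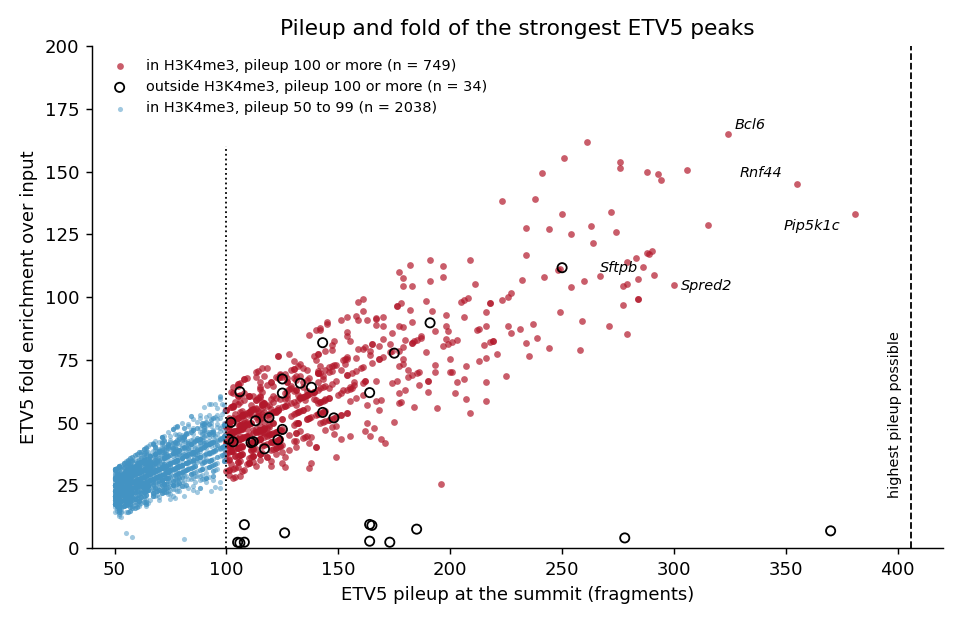
ETV5 fold enrichment over input against ETV5 pileup at the summit, 1 point per peak. Red points are the 749 peaks in H3K4me3, open circles the 34 of pileup 100 or more outside it, and blue points the weaker peaks of pileup 50 to 99 in H3K4me3; the dotted line marks the threshold of 100 and the dashed line the ceiling of 406 fragments. The open circles include 12 of fold under 10, while every red point lies at 25.7 or above.

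The 34 strong peaks outside H3K4me3 differed in what lay under them. Of these, 12 (35.3%, 19.7 to 53.5) had a fold under 10, against 0 of the 749 inside (exact upper limit 0.491%). Their 5 highest pileups were 370 fragments on chromosome 17 (39842942 to 39848915), 278 on chromosome 2 (98666237 to 98667418), 250 on chromosome 8 (124691364 to 124692893), 191 in Tnrc6a and 185 on chromosome 3 (5860363 to 5860923). The first 2 and the last lay over input backgrounds of 52.6, 66.9 and 23.5 fragments and had folds of 6.92, 4.11 and 7.596. The peaks on chromosome 8 and in Tnrc6a, a gene of microRNA silencing, had backgrounds of 1.25 and 1.14 and folds of 112 and 89.8. Summits within 1 kb of a protein-coding gene boundary were 8.82% of the 34 (1.86 to 23.7).

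The 749 peaks lay at gene starts. A summit was within 1 kb of the boundary (either end) of a protein-coding gene in 590 of 749 peaks (78.8%, 75.7 to 81.6), against 68.7% (68.0 to 69.5) of the 14478 weaker ETV5 peaks in H3K4me3. Within 250 bp the shares were 62.3% and 42.0%. Peaks of 50 to 99 fragments in H3K4me3 alone gave 82.2% within 1 kb and 62.5% within 250 bp. Nearness to a boundary was thus not particular to the strong peaks. The nearest boundary was the start in 487 of 492 peaks with a known strand (98.98%). Strong and weaker peaks were both required to overlap H3K4me3, a mark that flanks active starts, so their nearness to starts follows in part from the rule. Peaks of 1 library are not replicates, and the differences were not tested.

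Around the start itself the strong summits sat closer to it, and more of them upstream, than the weaker ones. Of the 578 strong peaks with a listed start within 1 kb, 55.5% (51.4 to 59.6) had the summit within 100 bp of it, against 38.5% (37.5 to 39.5) of 9091 weaker peaks. The median position was 2 bp downstream of the start (interval -12 to 12), against 61 bp downstream (57 to 65) for weaker peaks. Summits upstream of the start made up 48.6% and 35.1%. By pileup class of peaks in H3K4me3, the share within 100 bp was 18.4% at 0 to 9 fragments, 27.1% at 10 to 14, 34.4% at 15 to 24, 42.7% at 25 to 49, 55.7% at 50 to 99, 58.1% at 100 to 149, 53.5% at 150 to 199 and 44.6% at 200 or more. It was highest at 100 to 149 and did not go on rising with pileup.

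**Figure D2:**
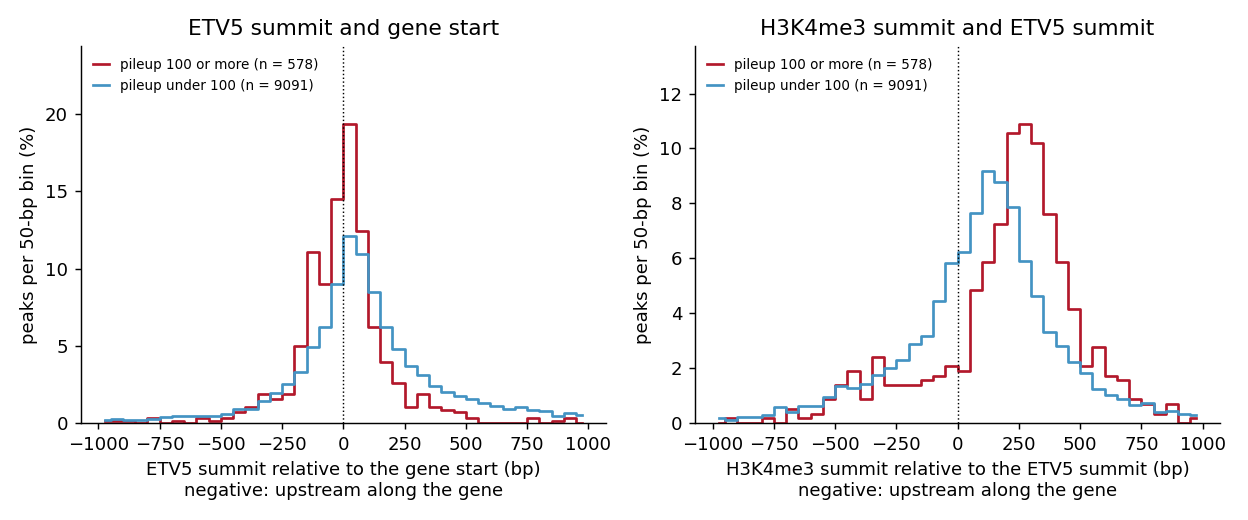
Position of the ETV5 summit relative to the nearest listed gene start (left) and of the H3K4me3 summit relative to the ETV5 summit (right), along the gene, as the percentage of peaks in bins of 50 bp. The 578 strong peaks (red) are centred on the start with a median of 2 bp and have the H3K4me3 summit a median of 255 bp downstream, against 61 bp and 124 bp for the 9091 weaker peaks (blue).

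Shared and paired promoters were also more frequent. At 163 of 749 peaks (21.8%, 18.9 to 24.9) at least 2 protein-coding genes had a boundary within 1 kb of the summit, against 10.3% (9.85 to 10.8) of weaker peaks. Starts that point away from each other lay within 1 kb in 14.4% (11.6 to 17.5) of the strong peaks with a listed start and in 7.71% (7.17 to 8.28) of the weaker. At 50 to 99 fragments the share was 13.1%, so such paired starts were not particular to the strong peaks. Ptcd2 with Mrps27 and Git2 with Ankrd13a each shared 1 peak, and which of the genes a peak belongs to cannot be told apart.

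A further 159 peaks lay over 1 kb from every protein-coding boundary. Of these, 84 were within 1 kb of a coding start in the promoter table, such as that of Atxn2l, an RNA-binding protein gene (218 fragments) and the survival gene Mcl1 (193). Another 18 lay within 1 kb of a boundary of a non-coding gene. The last 57 had neither, and 35 of them were inside a protein-coding gene. The farthest lay 104442 bp from the nearest boundary, that of Zfat (124 fragments), then came peaks inside Rora, a nuclear receptor gene (102), near Chd2, a chromatin remodeller (186), and inside Oxr1 (238) and Mical3 (123).

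Several of the 57 lay beside genes of the immediate early response without touching them. One of 167 fragments was 8662 bp from Fos, one of 144 was 23576 bp from Jun, one of 122 was 7292 bp from the nuclear receptor gene Nr4a1, one of 152 was 1165 bp from Junb, and one of 103 was 1284 bp from Ier2. A peak of 271 lay 6515 bp from Elovl5, of fatty acid elongation, and a peak of 168 inside Nfkbiz, a regulator of NF-kB, under an H3K4me3 peak of 5244 bp. These peaks were chosen after their values were seen.

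Chromosome X held few. It had 7 of its 522 ETV5 peaks among the 749 (1.34%, 0.541 to 2.74), the lowest share of any chromosome, and chromosome 16 had the highest (3.46%, 2.38 to 4.84). The intervals of these chromosomes overlap. The 4 strongest on X lay inside Cul4b, a ubiquitin ligase scaffold (223 fragments), at Ap1s2, of clathrin adaptor AP-1 (176), near Gpkow (123) and at F8a (116).

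The H3K4me3 peaks under the 749 were wider and stronger than those under weaker ETV5 peaks. Their median width was 1735 bp (1684 to 1789) and their median pileup 291 fragments, against 1432 bp (1418 to 1445) and 221 fragments at weaker ETV5 peaks, and against 559 bp and 38 fragments at the 2382 H3K4me3 peaks with no ETV5 peak. Median H3K4me3 folds were 42.7, 32.2 and 5.80 in the same order. At ETV5 peaks of 50 to 99 fragments alone the median H3K4me3 pileup was 277 and the fold 40.5, so strong H3K4me3 was not particular to the 749. By ETV5 pileup class, from 0 to 9 fragments up to 200 or more, median width was 1333, 1213, 1330, 1546, 1580.5, 1669.5, 1910 and 1919.5 bp, lowest in the second class. Within the 749 the relation was weak, with a Spearman correlation of 0.179 between ETV5 pileup and H3K4me3 width. These peaks share both libraries, and whether open chromatin raised both signals was not tested.

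Single peaks ranged widely. The widest H3K4me3 peaks under a strong ETV5 peak were 7870 bp near Frmd8 and the non-coding gene Neat1, 7535 bp at Sftpb and 5984 bp at Jun. The narrowest were 369 bp at the TGF-beta corepressor gene Ski, 376 bp near Galk1 and 377 bp near the glucose-responsive transcription factor gene Mlxipl. The highest H3K4me3 folds were 74.7 at Atxn2l, 69.4 at the start of Zbtb11, and 68.2 at Mcl1. Hnrnpu, an RNA-binding protein gene, equalled Mcl1.

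ETV5 and H3K4me3 summits rarely coincided at the strong peaks. The median distance between them was 298 bp (281 to 312), against 217 bp (214 to 222) at weaker peaks. Only 9.75% (7.72 to 12.1) of strong peaks had both summits within 100 bp, against 23.4% (22.7 to 24.1). The H3K4me3 summit was downstream of the ETV5 summit along the gene in 81.3% (77.9 to 84.4) of strong peaks, with a median of 255 bp, against 67.9% (66.9 to 68.9) and 124 bp for the weaker. At 50 to 99 fragments it was downstream in 79.4%, close to the share of the strong peaks. At Bcl6 the summits lay 855 bp apart, at Sftpb 951 bp, and at Pip5k1c 103 bp.

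Yet the ETV5 summit lay in the body of the H3K4me3 peak. Among strong peaks that overlapped 1 H3K4me3 peak, 82.0% (79.0 to 84.8) had the summit between 25 and 75% of its length, against 66.7% (65.9 to 67.4) of weaker peaks. Another 38 strong peaks (5.07%, 3.61 to 6.90) bridged 2 H3K4me3 peaks, against 2.56% of weaker ones, and in 13 of the 38 the ETV5 summit fell in the gap, as at Per2. Most strong peaks stood alone. They were the only ETV5 peak of their H3K4me3 peak in 84.5% (81.7 to 87.03), against 64.8% of weaker peaks. Peaks of 50 to 99 fragments gave 84.9%, so standing alone was not particular to the strong peaks. Only 1 H3K4me3 peak held 2 of the 749 (chromosome 11, 70237133 to 70240591, at Rnasek with 127 fragments and 0610010K14Rik with 120).

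An ETS sequence was found more often at the strong peaks than at other promoters. CCGGAAG, searched on both strands of the 300-base promoter of the nearest start, was found at 317 of 578 strong peaks (54.8%, 50.7 to 59.0), against 17.1% (16.3 to 17.9) at weaker peaks and 11.7% of all 21045 listed promoters. Where the promoter window held the ETV5 summit, 248 of 352 strong peaks had it (70.5%, 65.4 to 75.2), against 999 of 3462 weaker peaks. Among those weaker peaks, the class of 50 to 99 fragments gave 57.7% (54.3 to 61.0). The bare core GGAA, part of the longer site, did not separate the groups, at 97.4%, 94.1% and 95.7%. The SP and KLF site GGGCGG was in 74.9% of strong peaks, 74.1% of weaker peaks and 46.7% of all promoters. The NF-Y site CCAAT was in 29.1%, 37.5% and 38.5%, and the TATA box TATAAA in 4.67%, 5.41% and 12.7%. The promoters had a median ratio of observed to expected CpG of 0.876, 0.808 and 0.574. A match is a description and shows no bound factor.

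With pileup the share did not rise all the way. By class it was 8.47% at 0 to 9 fragments, 6.40% at 10 to 14, 8.56% at 15 to 24, 17.3% at 25 to 49, 43.3% at 50 to 99, 60.0% (55.1 to 64.9) at 100 to 149, 47.5% (37.5 to 57.7) at 150 to 199 and 36.5% (25.6 to 48.5) at 200 or more. Where the promoter held the summit the last 3 classes gave 78.3% (72.5 to 83.4), 57.1% (44.7 to 68.9) and 51.1% (36.1 to 65.9). Thus in both settings the class of 200 or more held the site less often than that of 100 to 149. In neither setting did their intervals overlap. They did overlap with the summit at least 75 bases from both promoter ends, a setting chosen after seeing the data. There the 100 to 149 class gave 72.0% (62.5 to 80.2) and that of 200 or more 51.5% (33.5 to 69.2, 33 promoters). These are counting intervals, and no test across libraries was possible. Bcl6, Atrnl1, Ankrd13a, Smc3 and Map7d1 were the 5 of highest pileup without CCGGAAG among those whose promoter held the summit. The promoter of Pip5k1c had none either, but its summit lay outside that window, 246 bp downstream of the start.

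**Figure D3:**
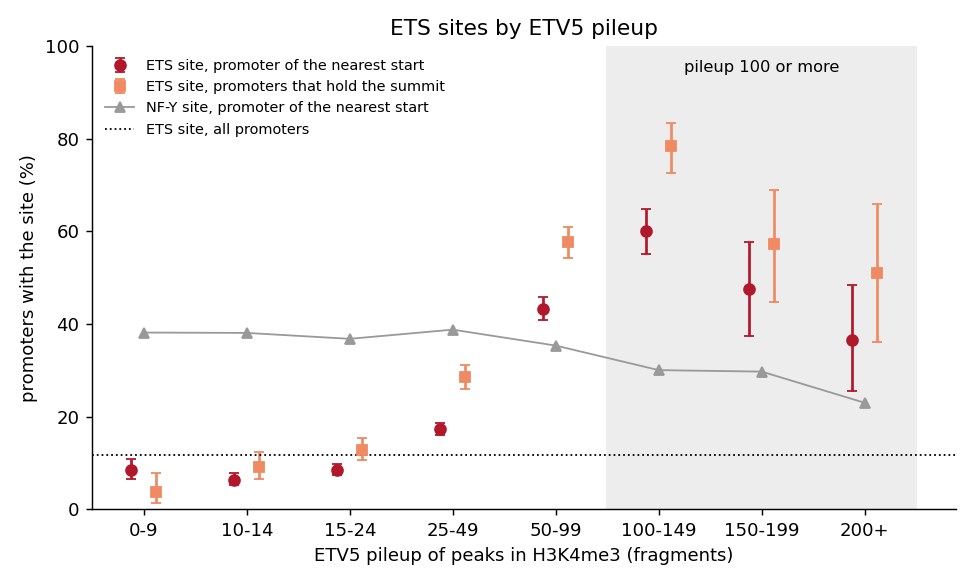
Share of promoters with an ETS site by ETV5 pileup class of peaks in H3K4me3, with exact 95% binomial intervals, for all promoters of the nearest start (circles) and for promoters that hold the summit (squares); triangles are the NF-Y site and the dotted line is the 11.7% of all promoters. Circles reach 60.0% at 100 to 149 fragments and stand at 36.5% at 200 or more.

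Where the site was present it mostly lay near the summit. Among strong peaks whose promoter held both, the nearest CCGGAAG was a median of 27 bp from the summit (25 to 31) and within 50 bp in 75.8% (70.0 to 81.0). Weaker peaks gave 33 bp (31 to 36) and 67.2% (64.2 to 70.1). Of the bases of these strong-peak promoters, 37.3% lay within 50 bp of a copy of the site. That share counts all bases alike, yet summits and copies both gathered at the start. Of the copies, 62.5% at strong peaks and 58.7% in all promoters lay within 50 bp of the start. Nearness of site and summit beyond this shared position was not tested. The SP and KLF site showed no such nearness, at 44.4% of summits within 50 bp of it against 47.6% of bases.

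**Figure D4:**
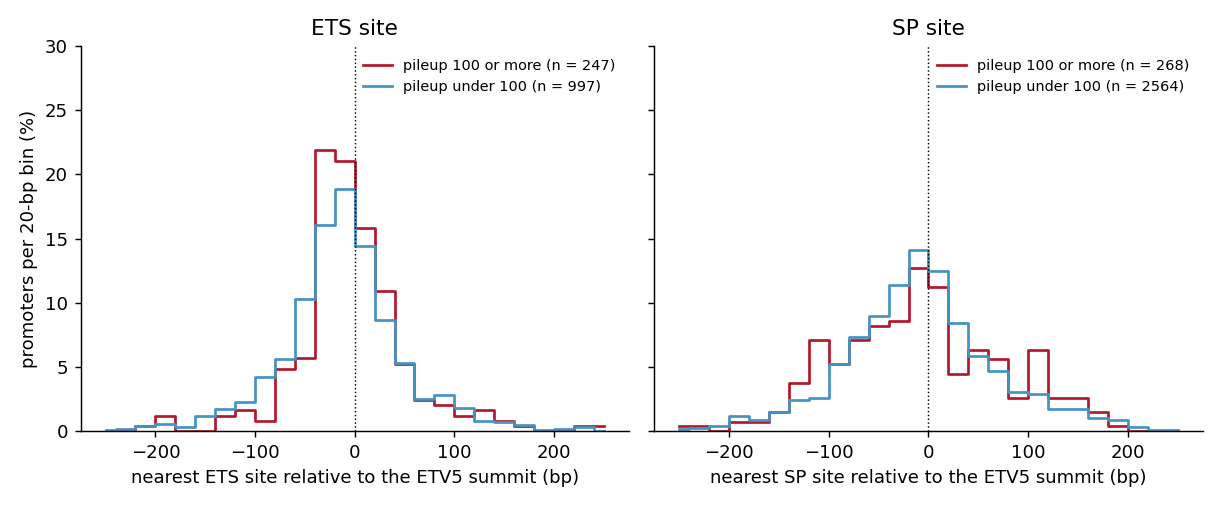
Distance of the nearest ETS site (left) and SP site (right) from the ETV5 summit, as the percentage of promoters in bins of 20 bp, for strong peaks (red) and weaker peaks (blue); the few sites beyond the axis are not drawn. Both ETS curves are narrow around 0, with medians of 27 bp and 33 bp from the summit in either direction.

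The flanking bases also differed. Of the copies at strong peaks, 48.7% were followed by T and 30.5% preceded by A, against 40.01% and 21.0% at weaker peaks, and against 40.7% and 22.6% in all promoters. Of the copies with both neighbouring bases in the promoter, 15.9% at strong peaks had A before and T after. The same share was 9.96% at weaker peaks and 10.6% in all promoters. Per promoter, the resulting 9-letter form ACCGGAAGT was in 11.1% (8.63 to 13.9) of strong peaks, 1.95% of weaker peaks and 1.45% of all promoters. These shares per promoter also carry the greater frequency of CCGGAAG itself. Of the 578 promoters, 261 held no copy of CCGGAAG, 242 held 1, 60 held 2, 11 held 3 and 4 held 4. Those with 4 were Lonp2, a peroxisomal protease gene (182 fragments), Timmdc1, an assembly factor of complex I (145), Rab11a, of recycling endosomes (124), and Surf6, of ribosome assembly (101). Tut7, an RNA uridylyltransferase gene with 276 fragments, held 3.

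A strong summit lay within 1 kb of 753 protein-coding genes, 3.48% of all 21631 and 6.60% of the 11405 that carry H3K4me3 within 1 kb. The lists below were chosen with these results known, and a share near 6.60% is that of marked genes at large. Splicing factors had 10 of 58 (17.2%), from 100 to 276 fragments, among them Hnrnpa2b1 at 185, Sf3b1 at 155 and Prpf19 at 154. Translation initiation factors had 7 of 39 (17.9%), among them Eif4a2, an RNA helicase, at 133, Eif1, of start codon choice, at 129, Eif2s1 at 126 and Eif4a3 at 123. Among H3K4 modifiers and their partners there were 4 of 20 (20%), namely the MLL-binding chromatin protein gene Psip1 (277), the H3K4 demethylase gene Kdm5a (244) and the methyltransferase genes Kmt2a (177) and Kmt2d (103). Cell cycle genes had 5 of 32 (15.6%), with the replicative helicase genes Mcm7 (183) and Mcm4 (181), the sliding clamp gene Pcna (123) and Cdt1 (105). Some of these peaks, such as those of Eif2s1, Mcm7, Mcm4, Kmt2d, U2af2 and Puf60, were nearer to the boundary of a neighbour. With only the gene of the nearest boundary counted, when 2.73% of all protein-coding genes had a strong peak, 7 splicing, 6 initiation, 3 H3K4 and 3 cell cycle genes had one. At a threshold of 150 fragments, when 1.07% did, the counts were 4, 0, 3 and 2.

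RNA decay genes had 5 of 58 (8.62%), among them Noct (294), Tut7 (276) and the deadenylase gene Cnot6 (197), and 8 with listed starts counted too, which added the microRNA silencing genes Tnrc6a (241) and Ago3 (181) and the deadenylase gene Cnot8 (106). Mitochondrial ribosomal proteins had 7 of 78 (8.97%, Mrps27 at 288, Mrps35 at 148), and cytosolic ribosomal proteins 4 of 46 of the large subunit (8.70%, Rpl32 at 170) and 3 of 32 of the small (9.38%, Rps14 at 147). Proteasome genes had 3 of 37 (8.11%, Psmd12 at 259, Psma7 at 142), cullin ligase genes 4 of 31 (12.9%, Cul2 at 115, Cul4a at 112) and vesicle traffic genes 4 of 54 (7.41%, the clathrin heavy chain gene Cltc at 201). Mediator and RNA polymerase II had 2 of 43 (4.65%, Polr2l at 146), DNA repair 2 of 44 (4.55%, Nbn at 178, Atr at 108) and respiratory complex I 1 of 41 (2.44%, Ndufa13 at 106). Here too the peaks of Mrps27, Psma7, Cul4a, Polr2l and Ndufa13 were nearer to a neighbour.

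Of 28 genes from receptors to ERK, in the pathway upstream of ETV5, 4 had a strong peak (14.3%), none at 150 fragments or more: the FGF receptor adaptor gene Frs2 (120 fragments), Nras (108), the kinase gene Rps6ka3 (108) and the adaptor gene Shc1 (104). Of 26 inhibitors and feedback genes, 2 had one (7.69%), Spred1 (161) and the RAS GTPase-activating gene Nf1 (127), and Spred2 was outside the 1 kb window. Immediate early and AP-1 genes had 2 of 25 (8%), Jun (119) and Junb (109). Of 26 genes of the ETS family itself, 18 carried H3K4me3 and 21 had an ETV5 peak within 1 kb of either gene end, of at most 91 fragments. A strong peak there was found at 0 of the 26, against 6.60% of genes with H3K4me3 and 3.48% of all protein-coding genes. In a list this short, such shares can also give 0. With listed starts counted besides gene ends, Elf2 had a strong peak of 114 fragments. It lay 130 bp from a start and 24664 bp from the nearer end of the gene.

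Of 14 AT2 markers, all 14 carried H3K4me3 and 11 had an ETV5 peak within 1 kb. The median pileup at the best peak was 44, against 31 for all protein-coding genes with H3K4me3. Sftpb was the 1 marker with a strong peak (7.14%), a share near the 6.60% of genes with H3K4me3. Surfactant and lipid genes had 2 of 30 (6.67%), Pcyt1a, of phosphatidylcholine synthesis (154), and Dgat2, of triglyceride synthesis (143). Lung transcription factors had 2 of 26 (7.69%), the Hippo effector gene Yap1 (179) and Foxp2 (110). Markers of AT1 (5 genes), ciliated (5), airway secretory (4), endothelial (5), leukocyte (6) and mesenchymal cells (5) had none, with best ETV5 pileups of at most 28. In lists of 4 to 6 genes a share of 6.60% can also give none. H3K4me3 lay at 3 of 5 AT1, 3 of 5 ciliated, 0 of 4 secretory, 1 of 5 endothelial, 2 of 6 leukocyte and 0 of 5 mesenchymal markers, and the part of such cells in the strong peaks was not tested.

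**Figure D5:**
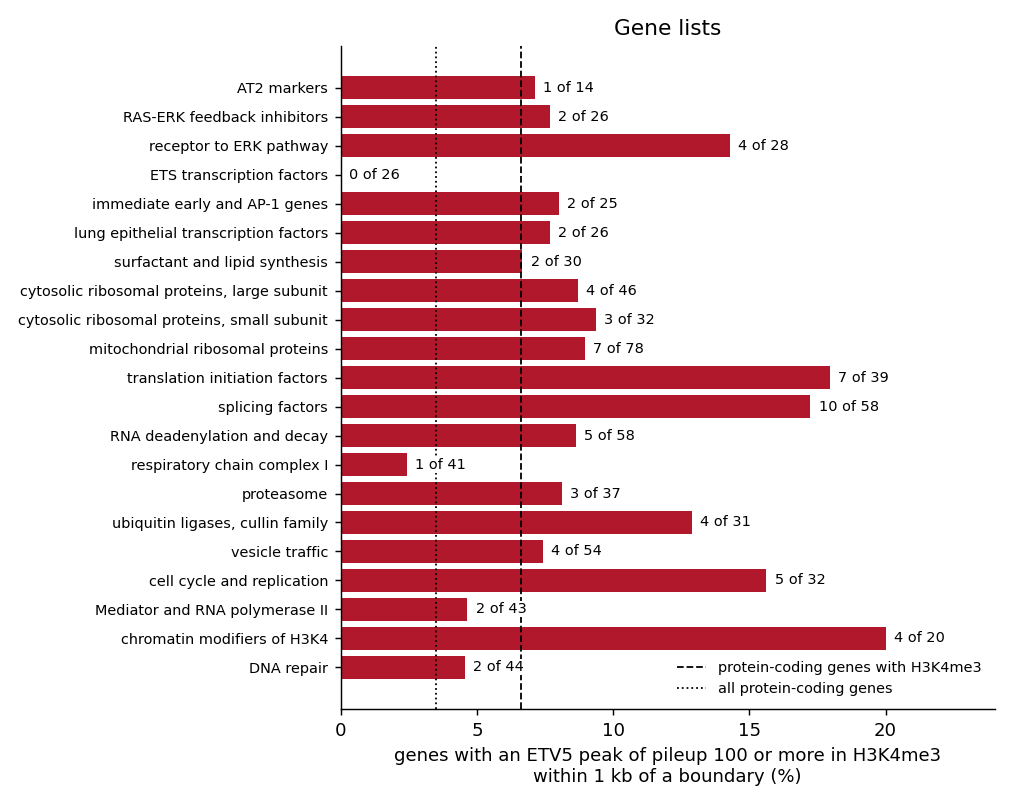
Percentage of the genes of each list with a strong ETV5 peak in H3K4me3 within 1 kb of a boundary, with the count beside each bar. The dashed line is the 6.60% of protein-coding genes with H3K4me3 and the dotted line the 3.48% of all protein-coding genes. Bars for H3K4 modifiers, initiation factors, splicing factors and cell cycle genes reach from 15.6 to 20%. The ETS family is at 0 of 26 when gene ends but not listed inner starts are counted, and a list this short can give 0 at either line.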

How the data were processed

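ETV5 and H3K4me3 ChIP-seq peaks of mouse AT2 cells were analysed, 1 library per antibody, grouped by the antibody in the labels. The authors called peaks in each library against input with MACS2 (2.1.0.20150420), keeping 1 tag per position and peaks of q under 0.05, per the file headers. The sources used here do not name an aligner. The deposited pileup signal counts fragments that overlap at the summit, unscaled for ChIP because the input was larger, per the file headers. The deposited fold enrichment ratio is pileup over local input background, each plus 1, and the deposited −log10 p-value and −log10 q-value were used only as thresholds. The background was computed back from pileup and fold. Per the file headers the input of the ETV5 list bears another name than the input sample of the labels.

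Labels name build mm9, but ETV5 peaks on Y reach position 90803282 and summits fall on GRCm38 starts, so positions are given as GRCm38, 1-based as in the files. Genes and 300-base promoters came from RefSeq tables of GRCm38.p6 (21631 protein-coding genes on these chromosomes, 21045 listed starts of 17274 genes). The planned distance to the gene start was replaced by that to the nearer gene end, because not every gene has a listed start, and signed distances use listed starts only. Motifs were searched in these promoters.

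Overlap needed 1 bp, checked with bedtools 2.31.1. Python 3.11.15, numpy 2.4.6, pandas 2.3.3, scipy 1.17.1 and matplotlib 3.10.9 were used, and the steps were tested on simulated data. Members, gene lists, pileup classes and motifs were chosen with earlier results of these data known. Named are the 20 highest pileups, 3 peaks on each side of the threshold, extremes of H3K4me3 width, fold and distance, the highest on X, up to 4 genes per list, and extremes of ETS copies. A few genes chosen this way are left out. Alternatives were other pileup thresholds, overlap rules, windows and motif forms.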

Additional observations from a re-analysis of the deposited data

Results flagged for a closer look

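Peaks outside chromosomes 1 to 19 and X were not among the 749, yet 3 of them reached a pileup of 100. A peak on one unplaced scaffold had 203 fragments at a fold of 85.3 and lay in H3K4me3. A peak on another had 240 fragments in H3K4me3, with a fold of 11.9 over an input background of 19.3. A peak in mitochondrial DNA lay outside H3K4me3, with a fold of 1.60 over an input background of 77.9 fragments.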

How the results depend on the processing

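The number of peaks followed the pileup threshold, at 1202 with 80 fragments and 231 with 150, with 401 at the threshold between 100 and 150, and other overlap rules left 725 to 745. The overlap with H3K4me3 was 92.6% when the summit itself had to lie in it. The share at gene boundaries was 62.3% within 250 bp, 91.2% within 5 kb and 83.3% with all annotated genes. At 150 fragments the median H3K4me3 width was 1910 bp and its difference from weaker peaks 466 bp, against 303 bp. Genes of any list with a strong peak numbered 74, and 112 or 22 at thresholds of 80 and 150, when 5.64% and 1.07% of all protein-coding genes had one. With listed starts counted besides gene ends, also chosen after seeing the data, 82 had one, against 3.91% of all protein-coding genes, and the counts of 25 of the 27 lists stayed within 1.5 times. The ETS share was 97.4% with GGAA, 64.9% with CCGGAA, 11.1% with ACCGGAAGT, 42.9% at 150 fragments, 70.5% where the promoter held the summit, and 64.4% with the summit at least 75 bases from both promoter ends, a setting chosen after seeing the data. No paired analysis was possible because there is 1 library per antibody. The ceiling of 406 fragments limits what pileup can show among the highest peaks.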

Other observations

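MicroRNA genes lay beside 8 of the 749 peaks, with the hairpin within 1 kb of the ETV5 summit. Hairpins were not counted at weaker ETV5 peaks, so whether 8 is more than at other peaks is not known. Mir8102 (136 fragments, at Pip4k2b), Mir5625 (124, at Slc35f6) and Mir1945 (111, at Gspt1) had the summit inside the hairpin. Mir8092 (197 fragments), Mir207 (170), Mir5620 (134), Mir6516 (108) and Mir707 (101) lay 314 to 694 bp away. Each of these peaks was also near a protein-coding gene, and whether the microRNA or that gene is concerned cannot be told apart.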
